A study of Homo sapiens with 2 samples.

Results

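Gene expression along human chromosome 18 was compared between PC3, a prostate cancer cell line, and PC3CR, its subline resistant to cabazitaxel (CBZ), a taxane that stabilizes microtubules. The list examined holds 59 named genes in order from the short arm (18p) to the long arm (18q). It was chosen with the difference between PC3CR and PC3 along this chromosome already known, so the values below are a description and carry no test. Of the 59 genes, 57 had at least 1 probe set assigned to a single gene and could be measured, 26 on 18p and 31 on 18q, of 303 measured genes of the chromosome and 19775 in all. ENOSF1, a mitochondrial enzyme of fuconate breakdown, and RNF125, a ubiquitin ligase, had no such probe set and were not analysed here. Both cell lines were grown in the same medium with fetal bovine serum. According to the labels, PC3CR had been passaged with CBZ for 18 months and was profiled after 3 months without it, whereas PC3 was the parental line. PC3CR is a single subline, and total RNA of each line was hybridized to 1 array, 2 arrays in all. With 1 array per line there is no replicate check, no p-value was computed, and precision is limited by how few arrays there are.

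Chromosome 18 carries many genes of unrelated function, from ubiquitin ligases to lipid transporters and chromatin proteins. What such a list shares is position. Genes that lie next to each other on a chromosome gain or lose dosage together when a segment is gained or lost, and cultured cancer cell lines and their sublines can differ in this way. Expression of a gene also depends on its own promoter and its transcription factors, so neighbours need not move alike. Copy number of PC3CR was profiled by the study with exome sequencing. No copy number value was used here, and whether gene dosage moves with the differences below was not tested.

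Values are log2 expression values made with the robust multichip average (RMA), and the brightest probe set of a gene over both arrays stands for it. The difference is PC3CR minus PC3, so that 1 stands for 2-fold, the threshold of the study's methods. RMA makes the distributions of both arrays alike, and a difference is therefore relative to the rest of the array. In bulk RNA, fewer cells that express a gene and less RNA per cell cannot be told apart. The median over all probe sets was 4.81 on each array, and Pearson's r between the arrays was 0.942, which is across genes and not across replicates. The epithelial markers KRT8, KRT18, EPCAM and CDH1 lay above the array median in both lines, EPCAM at 11.07 in PC3 and 8.57 in PC3CR. The leukocyte marker PTPRC was at 3.03 and 2.95, below the median. The prostate antigen gene KLK3 and the endothelial and fibroblast markers PECAM1 and COL1A1 also lay above the median, COL1A1 at 8.69 in PC3 and 6.56 in PC3CR. Their part in the results was not tested.

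The listed genes were not raised as a single block. In PC3CR 13 of the 57 were higher by 2-fold or more, 4 were lower by that much and the other 40 differed by less. Over all 19775 genes these shares were 9.84% higher and 6.72% lower. Listed genes are mostly well expressed, and 55 of the 57 had a brighter array at or above the array median. Among the 13587 genes that met this floor, 13.8% were higher by 2-fold or more and 9.38% were lower, against 23.6% and 7.27% of the 55 listed genes. A floor on the brighter array can let a gene in through the line where it is high, so a floor on the mean of both arrays was added after the data were seen. It kept 13030 genes, 13.6% higher and 9% lower by 2-fold or more, and 54 listed genes, 24.1% and 5.56%. The list was chosen on this contrast, so nothing is read from these shares. The median difference of the 57 was 0.44 (quartiles -0.21 and 0.94), and that of all genes was -0.04. Signs were mixed, with 36 listed genes (63.2%) above 0 and 21 below. Of all genes 45.2% were above 0, and of those that met the floor on the brighter array 51.8%. The values nearest the 2-fold threshold were 1.04 for MBD1 inside it and 0.97 for TWSG1 outside it on the higher side, and -1.23 for METTL4 and -0.93 for SPIRE1 on the lower side.

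With the brightest probe set of each gene, the higher genes lay mainly on the long arm. The share above 0 was 45.2% over all genes and 51.8% over those that met the floor on the brighter array. Of 31 genes on 18q, 25 were above 0, or 80.6%, and 83.3% of those above this floor. There 9 were past 2-fold upward and 1 downward, with a median of 0.61. Of 26 genes on 18p, 11 were above 0, or 42.3%, and 44% of those above this floor. On this arm 4 were past 2-fold upward and 3 downward, with a median of -0.09. The medians of the arms thus differed by 0.70 on the log2 scale. This difference was 0.64 over the listed genes that met either floor. It was smaller with other choices of probe set, 0.41 with the median of a gene's probe sets and 0.20 when probe sets with cross-matching suffixes were left out. The sign of the 18p median depended on the probe sets used, since it was 0.01 and 0.04 under these 2 choices. So did the arm with more higher calls. With the median of a gene's probe sets, 5 genes of 18p and 4 of 18q were past 2-fold upward. The arms overlapped widely, and both the highest and the lowest listed gene lay on 18p.

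**Figure D1:**
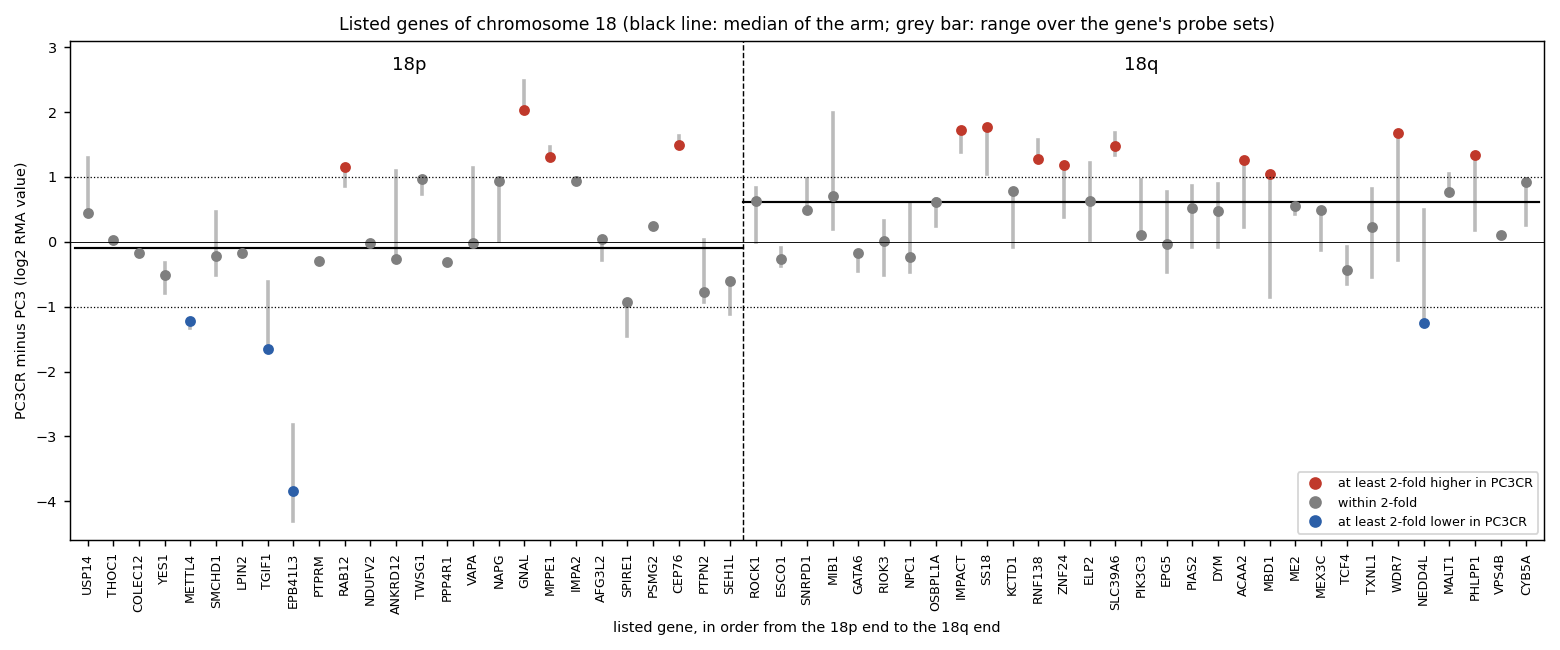
Difference between PC3CR and PC3 (log2 RMA value, vertical axis) for the 57 measured listed genes in order from the 18p end to the 18q end, each gene as a point, from single arrays. Grey bars span the differences of all probe sets of a gene, black lines are the medians of the arms, dotted lines mark 2-fold and the dashed line separates the arms. The 18q median lies at 0.61 and the 18p median at -0.09, with red points on both arms and 3 of the 4 blue points on 18p.

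Each arm was divided into 3 runs of consecutive listed genes. On 18p the run at the end of the arm, from USP14 to EPB41L3, had a median of -0.21, with 7 of 9 genes below 0. The run from PTPRM to GNAL had a median of -0.02, and that from MPPE1 to SEH1L a median of 0.14. On 18q the run from ROCK1 to KCTD1 had a median of 0.61, that from RNF138 to MBD1 one of 0.83, with 5 of 10 genes at least 2-fold higher, and that from ME2 to CYB5A one of 0.52. The longest stretch of consecutive listed genes above 0 had 9 genes, from OSBPL1A to PIK3C3, and 5 of these were at least 2-fold higher. The longest stretch below 0 had 8 genes, from COLEC12 to PTPRM, and 3 of these were at least 2-fold lower. Among all genes of chromosome 18 that met the floor on the brighter array, 71% were above 0. Of their neighbouring pairs, 58.3% had the same sign. This share ranked 10 of 23 chromosomes without the Y chromosome, and the highest was 64% on chromosome 13. Nothing is therefore read from the length of a stretch. Over the 57 genes the Spearman correlation of list order with the difference was 0.36. It is a description, since all genes share the same 2 arrays.

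The first and the last listed gene of each arm follow with their levels. USP14, a deubiquitinase of the proteasome at the 18p end, was at 10.58 in PC3 and 11.02 in PC3CR. SEH1L, a nucleoporin and the last listed gene of 18p, was at 10.55 and 9.94. ROCK1, a kinase that drives actomyosin contraction and the first listed gene of 18q, was at 9.49 and 10.13. CYB5A, which encodes cytochrome b5 and lies nearest the 18q end of the list, was at 9.13 and 10.06. All 4 lay within 2-fold at their brightest probe set, and SEH1L was the only lower gene among them. The other probe set of SEH1L differed by -1.12 and those of USP14 by 1.29 and 1.03, all past 2-fold. Every probe set of ROCK1 and CYB5A was within it.

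The sequences upstream of the genes at either extreme are shown so that the promoters of genes that differed in opposite directions can be compared. They are the 250 bases before the most upstream start site of the 2 listed genes with the largest and the 2 with the smallest difference, 5′ to 3′ on the strand of the gene, from RefSeq on GRCh38.p14. Capitals mark the motifs searched on either strand. The CCAAT box was searched by its name alone. The GC box was searched as GGGCGG. The TATA box was searched as TATAAA. The E-box was searched as CACGTG. No marked motifs overlap.
GNAL, chr18:11689014-11689263, plus strand: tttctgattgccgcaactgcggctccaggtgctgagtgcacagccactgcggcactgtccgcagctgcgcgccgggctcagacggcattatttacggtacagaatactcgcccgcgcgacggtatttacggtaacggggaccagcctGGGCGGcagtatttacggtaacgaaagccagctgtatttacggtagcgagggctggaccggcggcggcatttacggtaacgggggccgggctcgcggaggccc
SS18, chr18:26091220-26091469, minus strand: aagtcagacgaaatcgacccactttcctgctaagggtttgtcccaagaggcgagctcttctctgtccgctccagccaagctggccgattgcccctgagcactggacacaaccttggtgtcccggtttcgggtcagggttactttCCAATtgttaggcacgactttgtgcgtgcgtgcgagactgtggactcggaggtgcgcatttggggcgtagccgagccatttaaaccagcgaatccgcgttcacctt
TGIF1, chr18:3411759-3412008, plus strand: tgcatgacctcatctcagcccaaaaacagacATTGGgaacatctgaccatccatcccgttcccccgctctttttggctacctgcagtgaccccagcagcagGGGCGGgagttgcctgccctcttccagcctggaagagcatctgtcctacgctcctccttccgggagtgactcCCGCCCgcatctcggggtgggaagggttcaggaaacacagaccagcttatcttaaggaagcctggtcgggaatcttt
EPB41L3, chr18:5628992-5629241, minus strand: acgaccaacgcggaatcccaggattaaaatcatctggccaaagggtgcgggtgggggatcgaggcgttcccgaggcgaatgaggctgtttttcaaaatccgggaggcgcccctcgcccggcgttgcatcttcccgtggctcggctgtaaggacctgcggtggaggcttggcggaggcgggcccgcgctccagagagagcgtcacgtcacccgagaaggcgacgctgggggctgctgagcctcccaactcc

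GNAL and SS18 were at least 2-fold higher, and TGIF1 and EPB41L3 at least 2-fold lower. GNAL and TGIF1 hold a GC box in these bases, SS18 and TGIF1 a CCAAT box, and EPB41L3 none of the 4 motifs, so that no motif is shared by the higher pair and absent from the lower pair. RefSeq gives GNAL 5 start windows, SS18 2, TGIF1 7 and EPB41L3 4, and the array values do not say which start was used. A promoter window of 300 bases was found for 51 of the 57 genes. A GC box was present in 76.5% of these windows, against 68.3% of the windows of 10934 genes above the array median and 44.6% of those of 27195 genes. A CCAAT box was present in 33.3%, 36.1% and 35.7%, a TATA box in 5.88%, 6.12% and 12%, and an E-box in 5.88%, 9.98% and 7.42%. The median window held 29 CpG dinucleotides among the listed genes, 30 among the 12 with a window that were at least 2-fold higher, and 26 among genes above the array median. These shares describe the letters in the windows and say nothing of factor binding.

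Divergent neighbours offer a closer look, since they share a stretch of upstream sequence. In 2 pairs of listed genes the start sites faced away from each other within 1000 bases. CEP76 and PSMG2 have start sites 265 bases apart, counted to the nearest of the starts of PSMG2, and differed by 1.49 and 0.24. SLC39A6 and ELP2 have start sites 559 bases apart and differed by 1.47 and 0.62. All 4 genes were higher, with 1 gene of each pair past 2-fold and the other within it.

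The largest group by role holds 17 genes, mostly of transcription, chromatin, RNA and the nucleus. It also holds IMPACT and CEP76, whose roles, given below, are others. Past 2-fold were 5 higher genes and 2 lower genes, the other 10 were within it, and the group median was 0.04. SS18, a subunit of the BAF chromatin remodelling complex, went from 7.25 in PC3 to 9.01 in PC3CR, which differ by 1.76, and all of its 4 probe sets were at least 2-fold higher. IMPACT, which restrains the amino acid sensor GCN2, was at 7.10 and 8.83, a difference of 1.72. CEP76, which limits the duplication of centrioles, was at 6.62 and 8.11. Both probe sets of IMPACT and of CEP76 were at least 2-fold higher, so that these 3 genes did not rest on a single probe set. ZNF24, a zinc finger protein, differed by 1.18, and 2 of its 5 probe sets were past 2-fold. MBD1, which binds methylated CpG, differed by 1.04. Its 5 probe sets ranged from -0.84 to 1.04, and the call rested on the brightest.

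Within 2-fold in this group, KCTD1, a transcriptional repressor, differed by 0.79, ELP2, an Elongator subunit, by 0.62, and SNRPD1, of the spliceosomal Sm core, by 0.49. All 3 lie on 18q. THOC1, of the THO complex of mRNA export, differed by 0.04 and lies on 18p. GATA6, an endodermal transcription factor, differed by -0.18, SMCHD1, a chromatin protein of X inactivation, by -0.21, the cohesin acetyltransferase ESCO1 by -0.26 and ANKRD12, an ankyrin repeat protein, by -0.26. TCF4, a helix-loop-helix factor, was below the array median in both lines and differed by -0.43, and SEH1L differed by -0.61. The lower calls were those of METTL4 and TGIF1, both on 18p. METTL4, a methyltransferase, was at 9.18 in PC3 against 7.95 in PC3CR, or -1.23. TGIF1, a corepressor of SMAD signalling, was at 10.62 and 8.96, a difference of -1.65. Both probe sets of METTL4 and 2 of the 3 of TGIF1 were past 2-fold.

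Of 11 genes of kinases, phosphatases and signalling, 2 were past 2-fold, both higher, and the group median was 0.10. GNAL, a G protein alpha subunit that couples receptors to adenylyl cyclase, was at 7.27 in PC3 and 9.30 in PC3CR. Its difference of 2.03, or 4.10-fold, was the largest of the list, and its 4 probe sets ranged from 2.03 to 2.48. The next listed genes on 18p were also higher, MPPE1 by 1.31 and IMPA2 by 0.94, whereas AFG3L2 after them differed by 0.05. PHLPP1, a phosphatase that removes an activating phosphate from AKT, was at 5.06 and 6.41, a difference of 1.35. Its other probe set, which differed by 0.19, was at 2.11 and 2.30, below the array median in both lines.

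IMPA2, an inositol monophosphatase, differed by 0.94, just within 2-fold. MALT1, the protease that relays antigen receptor signals to NF-kappaB, differed by 0.77 and ROCK1 by 0.63. PIK3C3, the class III lipid kinase of autophagy, differed by 0.10 and RIOK3, an atypical kinase, by 0.01. The 7 probe sets of PIK3C3 ranged from 0.05 to 0.95. The 5 of RIOK3 ranged from -0.50 to 0.32, the highest of them below the array median in both lines. The genes below 0 were those of phosphatases and a Src family kinase, all on 18p. PTPRM, a receptor phosphatase of cell contacts, differed by -0.30, PPP4R1, a regulatory subunit of protein phosphatase 4, by -0.31, the Src family kinase gene YES1 by -0.51 and PTPN2, a phosphatase that dampens JAK and STAT signals, by -0.78. Every probe set of PTPRM and YES1 was below 0, PPP4R1 had 1 probe set, and those of PTPN2 reached 0.03.

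Among 11 genes of membrane traffic and lipid handling, 2 were past 2-fold, both higher, and the group median was 0.10. WDR7, which associates with the vacuolar proton pump, was at 5.37 in PC3 against 7.05 in PC3CR, which differ by 1.68, and its second probe set, which differed by -0.28, was below the array median in both lines at 2.17 and 1.89. RAB12, a small GTPase of endosomal traffic, was at 8.87 and 10.02, a difference of 1.15, with its 3 probe sets between 0.86 and 1.15. NAPG, a SNARE adaptor, differed by 0.94, OSBPL1A, an oxysterol-binding protein, by 0.61, and DYM, a Golgi protein, by 0.48. The ESCRT ATPase gene VPS4B differed by 0.10. The remaining members lay below 0. VAPA, which anchors contacts of the endoplasmic reticulum, differed by -0.02 at its brightest probe set and by up to 1.14 at others. EPG5, a tether of autophagosomes, differed by -0.04, the phosphatidate phosphatase gene LPIN2 by -0.18 and NPC1, the lysosomal cholesterol transporter, by -0.23. SPIRE1, an actin nucleator, was at 10.51 and 9.58, a difference of -0.93, and 2 of its 4 probe sets were at least 2-fold lower.

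The 8 genes of mitochondria, metabolism and transport were above 0 with 1 exception. Past 2-fold were 3, all higher, and the group median was 0.74. SLC39A6, a zinc importer, was at 10.89 in PC3 against 12.37 in PC3CR, which differ by 1.47, and all of its 4 probe sets were at least 2-fold higher. MPPE1, a phosphodiesterase that remodels GPI anchors, was at 7.53 and 8.84, with all of its 3 probe sets past 2-fold. ACAA2, a thiolase of mitochondrial fatty acid oxidation, was at 8.08 and 9.33, a difference of 1.26, whereas its lowest probe set differed by 0.22. Within 2-fold, CYB5A differed by 0.93, ME2, the mitochondrial malic enzyme, by 0.55, TXNL1, a thioredoxin-like protein, by 0.23 and AFG3L2, a protease of the inner mitochondrial membrane, by 0.05. NDUFV2, a subunit of respiratory complex I, was the exception at -0.02.

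The ubiquitin, SUMO and proteasome group had 7 measured genes with a median of 0.50, with 1 gene past 2-fold in each direction. RNF138, a ubiquitin ligase of DNA end resection, was at 7.80 in PC3 against 9.08 in PC3CR, which differ by 1.28, with both probe sets past 2-fold. MIB1, a ligase that activates Notch ligands, differed by 0.71 and had probe sets up to 1.99. The SUMO ligase gene PIAS2 differed by 0.52, MEX3C, an RNA-binding ligase, by 0.50, USP14 by 0.44 and PSMG2, a chaperone of proteasome assembly, by 0.24. The exception was NEDD4L, a ligase that limits the epithelial sodium channel, at 9.63 and 8.38, a difference of -1.24. Its 6 probe sets ranged from -1.24 to 0.49, and 1 of them was at least 2-fold lower.

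The last 3 genes act at the cell surface or outside the cell. EPB41L3, which links membrane proteins to the cytoskeleton, was at 6.53 in PC3 and 2.69 in PC3CR. The measured difference of -3.84 was the largest of the listed genes in either direction, and its 3 probe sets ranged from -4.30 to -2.82. The PC3CR level was far below the array median and not shown to be above background, so the size is uncertain and a fold could only be a lower bound. TWSG1, a secreted protein that binds bone morphogenetic proteins, differed by 0.97. COLEC12, a scavenger receptor, differed by -0.16 and was below the array median in both lines, as TCF4 was.

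**Figure D2:**
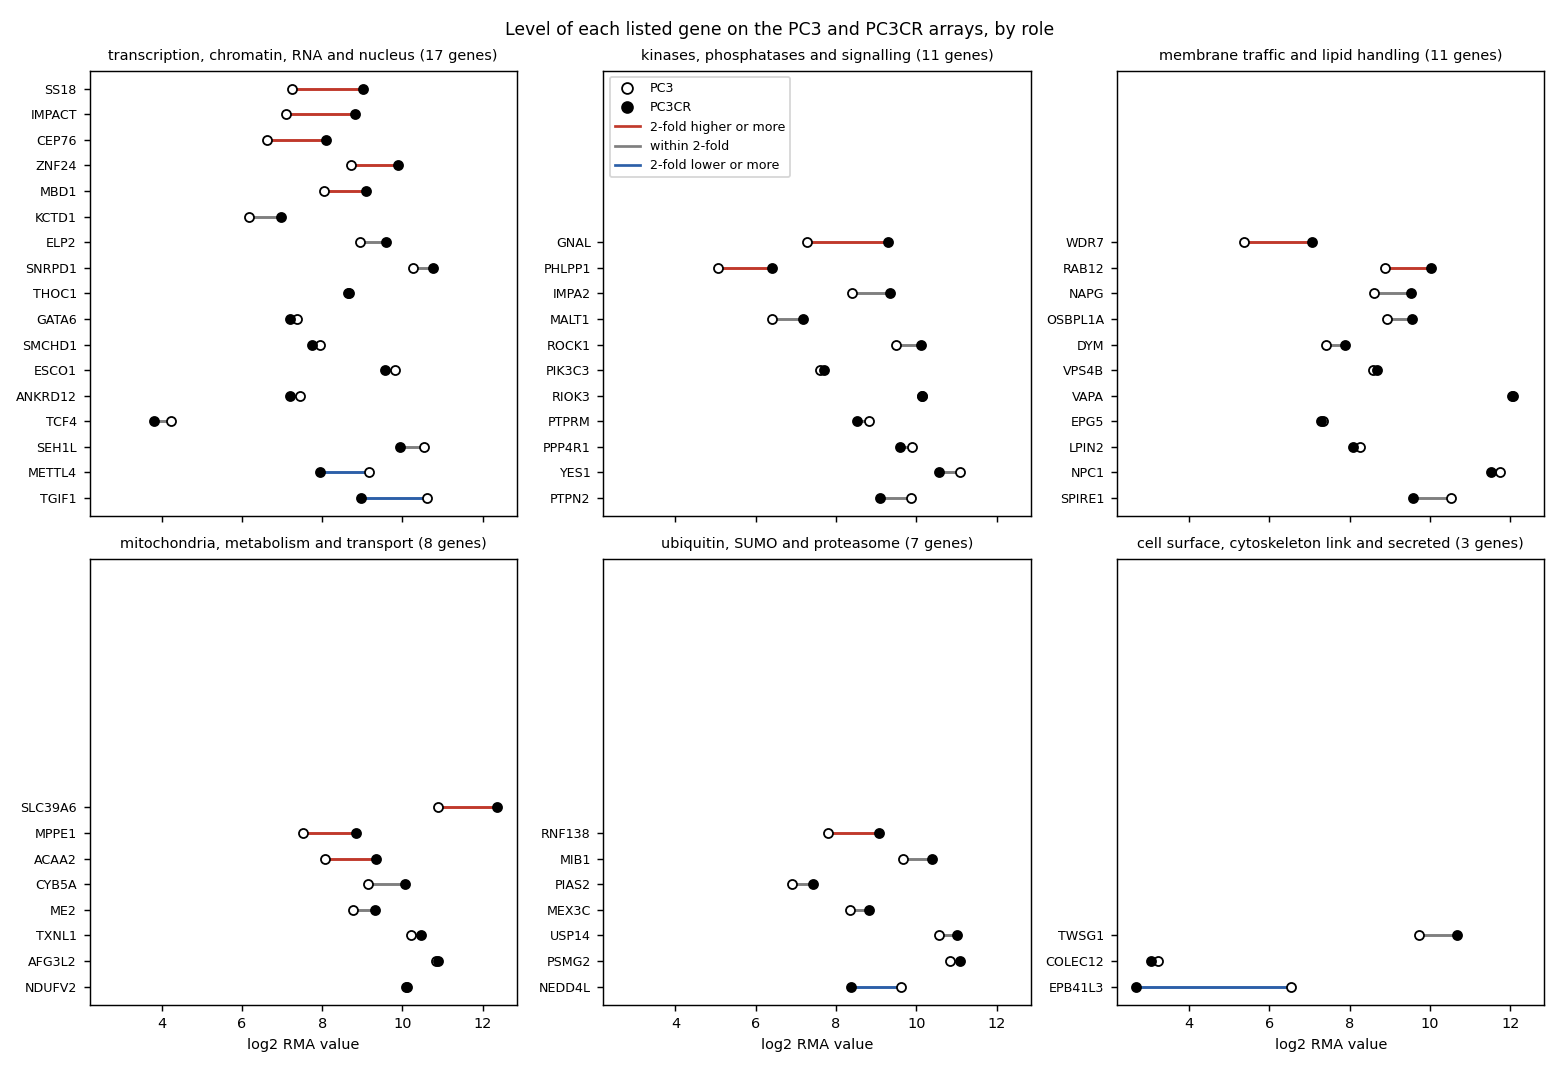
Level (log2 RMA value, horizontal axis) of each of the 57 listed genes on the PC3 array (open circles) and the PC3CR array (filled circles), with 1 array per cell line, grouped by role and ordered by difference. Red lines join genes at least 2-fold higher in PC3CR, blue lines genes at least 2-fold lower and grey lines genes within 2-fold. GNAL has the longest red line and EPB41L3 the longest blue one.

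Probe sets of a gene bind different parts of its transcripts on the same array, and are no replicates. Of the 57 genes, 50 had several. All probe sets were above 0 for 22 of these, all were below 0 for 11, and those of the other 17 touched or spanned 0. Some of these probe sets carried little signal. Among probe sets whose mean over both arrays reached the array median, 43 genes had several, all above 0 for 23, all below 0 for 9 and touching or spanning 0 for 11. The whole set was at least 2-fold higher for 7 genes, GNAL, MPPE1, CEP76, IMPACT, SS18, RNF138 and SLC39A6, and at least 2-fold lower for METTL4 and EPB41L3. The other 6 genes called higher had a probe set that was not, and 4 of them, ACAA2, MBD1, RAB12 and ZNF24, still did among probe sets with this signal. In turn, 6 genes outside the higher calls had another probe set past 2-fold, namely USP14, MIB1 and ELP2 with 2 each and VAPA, ANKRD12 and MALT1 with 1 each.

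The rest of chromosome 18 was read from all 246 measured genes that are not on the list. Past 2-fold were 49 higher and 10 lower genes, and the median was 0.10. Among the 145 that met the floor on signal the median was 0.62, with 33.8% past 2-fold upward and 6.21% downward, beside 0.48, 23.6% and 7.27% for the 55 listed genes. With the floor on the mean of both arrays, the unlisted genes had a median of 0.61, with 32.3% past 2-fold upward and 4.51% downward. Over all unlisted genes the medians of the arms were close, 0.11 over 193 genes of 18q and 0.08 over 53 genes of 18p. Above the floor on the brighter array they were 0.69 over 113 genes and 0.40 over 32, and above the floor on the mean 0.68 over 105 genes and 0.45 over 28. The largest differences were those of RAB27B, a GTPase of secretion, from 6.36 to 9.21, CCDC68 from 4.54 to 7.22, and the beta tubulin gene TUBB6 from 8.21 to 10.80. The 3 probe sets of RAB27B ranged from 0.31 to 2.86, and CCDC68 and TUBB6 had 1 each. The PC3 level of CCDC68 lay below the array median, so this gene met the floor through PC3CR alone. The other extreme was lower. DSEL, an epimerase-like protein, was at 7.14 in PC3 and 2.16 in PC3CR, the cadherin gene CDH2 at 8.21 and 3.28, and the serpin gene SERPINB3 at 8.44 and 4.80. All 3 lower genes lie on 18q, and their PC3CR levels lay below the array median. The 3 probe sets of DSEL ranged from -4.98 to -0.63, the 2 of CDH2 from -4.93 to -2.49 and the 2 of SERPINB3 from -3.64 to -2.96.

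Over the 200 genes of the chromosome above the floor, the median of 15 neighbouring genes ranged from -0.04 to 1.31. The lowest value was shared by 7 windows near the 18p end, the first of which ran from THOC1 to DLGAP1-AS2 and held 6 listed genes. The highest ran from ELAC1 to ATP8B1 on 18q, and 13 of its 15 genes also met the floor on the mean of both arrays. The 3 listed genes within it were MEX3C, TXNL1 and WDR7, at 0.50, 0.23 and 1.68. TCF4, listed between MEX3C and TXNL1, differed by -0.43 and is not counted there because it did not meet the floor. These windows were picked for their medians and are a description.

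**Figure D3:**
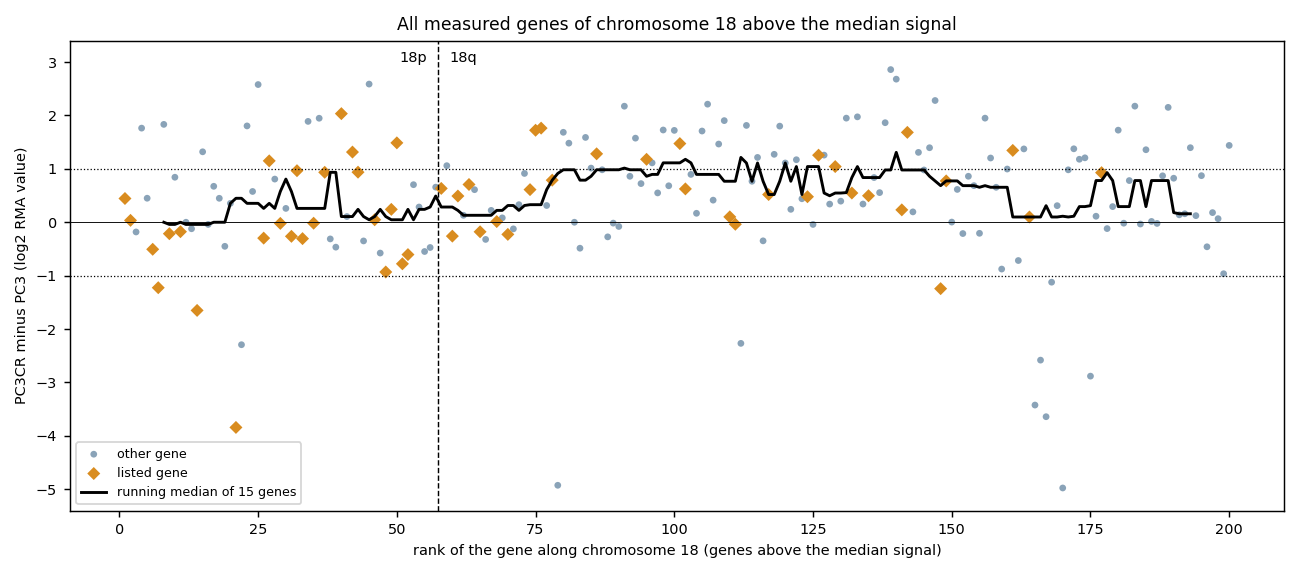
Difference between PC3CR and PC3 (log2 RMA value, vertical axis) for the 200 genes of chromosome 18 above the floor on signal, in chromosomal order (horizontal axis, rank), with 1 array per cell line. Orange diamonds are listed genes, grey-blue circles other genes, the black line is the running median of 15 genes and dotted lines mark 2-fold. The running median lies lowest near the 18p end, at -0.04, and reaches 1.31 on 18q.

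Chromosomes were set side by side to place these values, without the Y chromosome. Chromosome 18 was examined with this contrast already known, and the listed genes are among its genes. Its rank is therefore a description and carries no test. Among genes above the floor chromosome 18 had the highest median of 23 chromosomes, at 0.55, and the next were chromosome 13 at 0.25, chromosome 15 at 0.23 and chromosome 4 at 0.22. It also had the highest share of genes at least 2-fold higher, 31%, followed by chromosome 4 with 24% and chromosome 15 with 22.5%. With the floor on the mean of both arrays its median was 0.55 and this share 29.9%, both again the highest, and the next share was 24.3% on chromosome 4. The share of its genes at least 2-fold lower was 6.50% above the floor on the brighter array and 4.81% above the floor on the mean. Without a floor its median was the highest at 0.12, followed by chromosome 15 at 0.09, and its share of higher genes was the highest at 20.5%, followed by chromosome 15 with 16.3%.

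**Figure D4:**
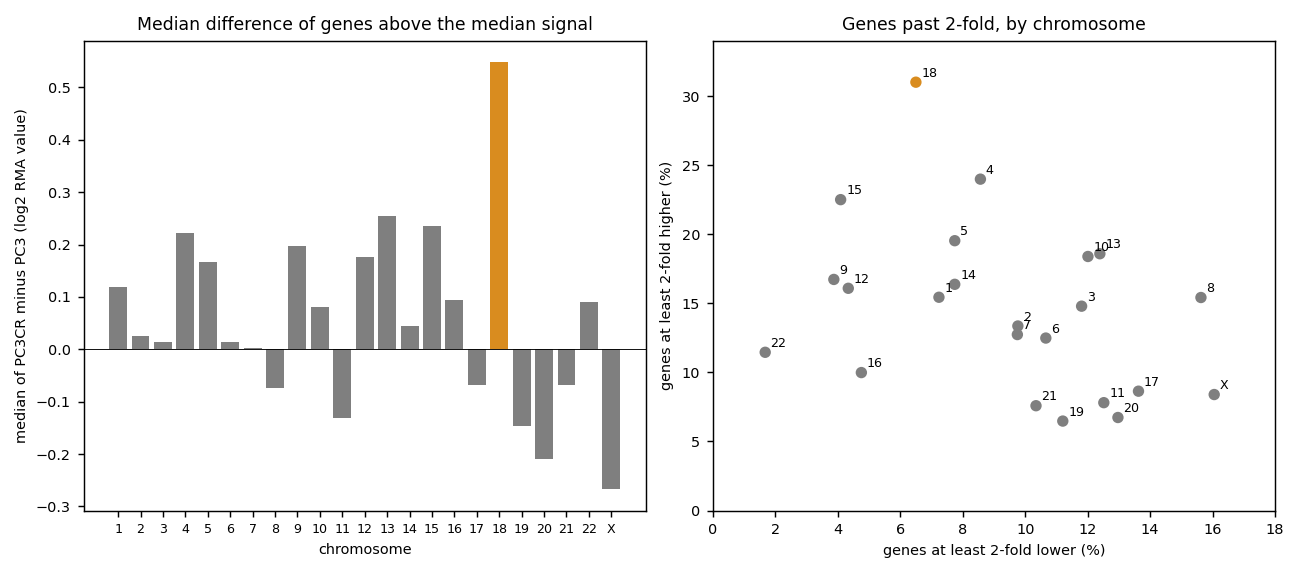
Genes above the floor on signal, by chromosome, with 1 array per cell line. Left, median difference between PC3CR and PC3 (log2 RMA value); right, share of genes lower by 2-fold or more (horizontal axis) and higher by as much (vertical axis). Chromosome 18, in orange, has the highest median at 0.55 and the highest share of higher genes at 31%, and was examined with this contrast already known.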

How the data were processed

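RNA of PC3 and PC3CR was hybridized to 1 array each. The authors deposited log2 values, 1 for each of 54613 probe sets, made with RMA. Their processing notes name Affymetrix Expression Console 1.4 and Transcriptome Analysis Console 3.1. Probe set names follow the U133 Plus 2.0 design, although a Human Gene 1.0 ST array is given in the methods. Scanner files were not used here.

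Of the probe sets, 41091 had 1 gene symbol in the platform annotation and were used, 1801 had several and 11721 were unnamed here. Symbols were updated through Entrez IDs to RefSeq on GRCh38.p14 for 41037 probe sets, and this table gave the order of genes. Arms were taken from the list, SEH1L being last on 18p and ROCK1 first on 18q. The members, roles and comparisons were chosen with earlier results of these data known. Every listed gene is named. Both levels are given for the 10 largest and 5 smallest differences and at the ends of the arms, unlisted genes are the 3 largest and 3 smallest above the floor, and other levels are named where a result turns on them. A floor on signal means a brighter array at or above its median over probe sets. A floor on the mean of both arrays, at the mean of the array medians, was added after the data were seen. Windows were 250 bases before to 50 after a start site. No test was run. Alternatives were fold thresholds of 1.5 and 3, the floor and a lower one, the mean or median of probe sets, plain probe sets, and 3 scalings (median, loess with a span of 0.4, quantile). The choice of probe set and the 2-fold rule were run on simulated arrays with known changes, as a check of the code. The noise there was set and not taken from these arrays, so the simulation gives no error for the calls. Scripts ran under Python 3.11.15 with pandas 2.3.3 and numpy 2.4.6, loess came from statsmodels 0.14.6, and plots from matplotlib 3.10.9.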

Additional observations from a re-analysis of the deposited data

How the results depend on the processing

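A median was taken as moved when it changed by over 0.1 on the log2 scale and a count when it changed by over 1.5 times. With a 1.5-fold threshold, 23 listed genes were higher and 7 lower, with 7 higher on 18p and 16 on 18q, and 77 unlisted genes of chromosome 18 were higher and 19 lower. With a 3-fold threshold, 4 listed genes were higher and 2 lower, with 1 higher on 18p and 3 on 18q, and 27 unlisted genes were higher. The median of unlisted genes was 0.62 with the floor at the array median and 0.23 with the floor at the lower quartile. With the floor on the mean of both arrays, chosen after the data were seen, it was 0.61 and 6 unlisted genes were lower. With probe sets averaged per gene, 8 listed genes were at least 2-fold higher, 5 of them on 18q, and the 18q median was 0.46. With the median of probe sets, 5 genes of 18p and 4 of 18q were at least 2-fold higher. The medians were 0.22 for the list, 0.41 for 18q and 0.0072 for 18p, which turned its sign. With plain probe sets, which left 50 listed genes, they were 0.16, 0.23 and 0.0354, again with the sign of 18p turned. Median centring shifted all genes by -0.12, which gave 0.32 for the list, -0.22 for 18p, 0.49 for 18q and -0.0211 for unlisted genes, the last with its sign turned. The median of all genes went from -0.04 to -0.16 under the same shift. Loess centring gave 0.34 for the list. Under quantile normalization no median or count moved by these limits. The cause of these changes was not tested.

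The 18q median was above the 18p median in each alternative with a median. Of the 13 higher genes, 4 had a value in all 9 alternatives at the 2-fold threshold and kept the call, namely GNAL, CEP76, IMPACT and SLC39A6. MPPE1, SS18 and RNF138 kept it in the 8 that gave them a value and had no plain probe set. METTL4 and TGIF1 kept the lower call in all 9, and EPB41L3 in 8, since its mean was under the added floor. MBD1 turned to -0.84 with plain probe sets and NEDD4L to 0.16 with the median of probe sets. With 1 array per line no alternative gives an error for a difference. No paired analysis was possible because each line had a single array, and for the same reason none could be left out.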
